A study of Mus musculus with 6 samples.

Results

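Claudins, connexins, simple keratins and their partners at epithelial junctions were followed in mouse embryonic stem (ES) cells that were made to express the transcription factor Sp5. The set was defined by name: every gene row of the deposited table for a numbered claudin (Cldn), connexin (Gja to Gje), Tjp, Marveld, Grhl, Esrp or Spint gene, and Ocln, Epcam, F11r, Cgn, St14, Krt7, Krt8, Krt18 and Krt19. It held 71 of the 36699 rows, with 27 claudins, 20 connexins, 9 tight junction partners, 4 keratins and 11 epithelial regulators and proteases. Of the 71 rows, 49 were tested by the authors, 21 were at levels too low for their test and 1 (Spint2) failed in it.

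The cells were of the A2Lox.cre line, in which a transgene is switched on by doxycycline, and both groups are labelled as Flag-Sp5 cells. They were grown on mouse embryonic fibroblasts in serum medium, separated from these feeders and cultured in suspension as embryoid bodies, clumps in which ES cells begin to differentiate. All 6 libraries were taken on day 3. The 3 libraries of the first group had no doxycycline, and the 3 of the second had doxycycline for 24 hours from day 2 to induce Flag-tagged Sp5. No cells given the drug but lacking the transgene enter here, and the effects of drug and transgene cannot be told apart. The labels do not say whether the libraries came from separate cultures or how many clones the line comprised, so the spread behind the tests may be technical.

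As background, epithelial cells are joined near their upper edge by tight junctions, strands built of claudins together with occludin and the related Marveld proteins, which limit what passes between cells. The strands are tied to actin by the scaffold proteins of the Tjp (zonula occludens) family and by cingulin. Gap junctions are channels of connexins that pass small molecules from cell to cell, and keratins 8 and 18 pair into the intermediate filaments of simple epithelia. Undifferentiated ES cells and the epiblast they resemble are epithelial and carry many of these proteins. During gastrulation the cells that enter the primitive streak lose epithelial junctions in an epithelial to mesenchymal transition, with the repressors of the Snail and Zeb families among its known drivers.

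Levels are the authors' FPKM values (fragments of a gene relative to its transcript's length and the library's mapped fragments), 1 per group, into which the 3 libraries were combined. No value per library was analysed, so overlap between libraries cannot be given. A gene is said to have risen or fallen where the authors' Cuffdiff test gave q under 0.05 (Benjamini-Hochberg over all tested rows), with doxycycline set against without. The standard errors (SE) and 95% intervals are those that the authors' test statistic implies for the log2 ratio. They rest on the authors' error model for 3 libraries per group. The depth is unknown, since the table holds no counts. Sp5 itself stood at 0.769 FPKM without and 126 FPKM with doxycycline, which fits the labels, and T (brachyury), a primitive streak gene, rose from 0.745 to 103 FPKM. The ES cell genes Pou5f1 (999 and 1058 FPKM) and Sox2 (60.8 and 60.6 FPKM) were high in both groups and were not called. The other 3 genes of that list were called, with Utf1 lower (314 and 119 FPKM), Dppa4 lower (56.3 and 45.8 FPKM) and Nanog higher (46.0 and 117 FPKM).

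Of the junction and keratin genes that were called, most fell, by modest amounts. Of the 49 tested members 16 fell and 7 rose, leaving 26 not called, so 46.9% were called against 23.2% of all 18537 tested rows. Falls made up 32.7% of the tested members against 12.7% of all tested rows, and rises 14.3% against 10.5%. Among the 32 tested members with at least 1 FPKM in the higher group, 15 fell, 5 rose and 12 were not called, or 62.5% called against 28.3% of the 12326 tested rows at that level. At that level 46.9% of the members fell and 15.6% rose, against 16.8% and 11.5% of rows. The median difference of the tested members, as log2(FPKM + 1), was -0.03, against -0.02 over all tested rows. At 1 FPKM or more it was -0.11 against -0.04. The median size of the called differences was 0.53 on the log2 scale for members and 0.56 for all called rows. Only 4 of the 23 called members reached a 2-fold change (17.4%, against 24.8% of all called rows). The 4 were Gjc1, which rose, and Krt18, Krt7 and Cldn1, which fell. Of the 9 called members that changed by at least 1.5-fold, 5 fell and 4 rose, and the other falls were smaller. Over the whole table, 2084 called rows changed by at least 1.5-fold, of which 967 fell and 1117 rose. RNA was taken from whole embryoid bodies, so fewer cells of a type and less RNA per cell cannot be told apart.

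**Figure D1:**
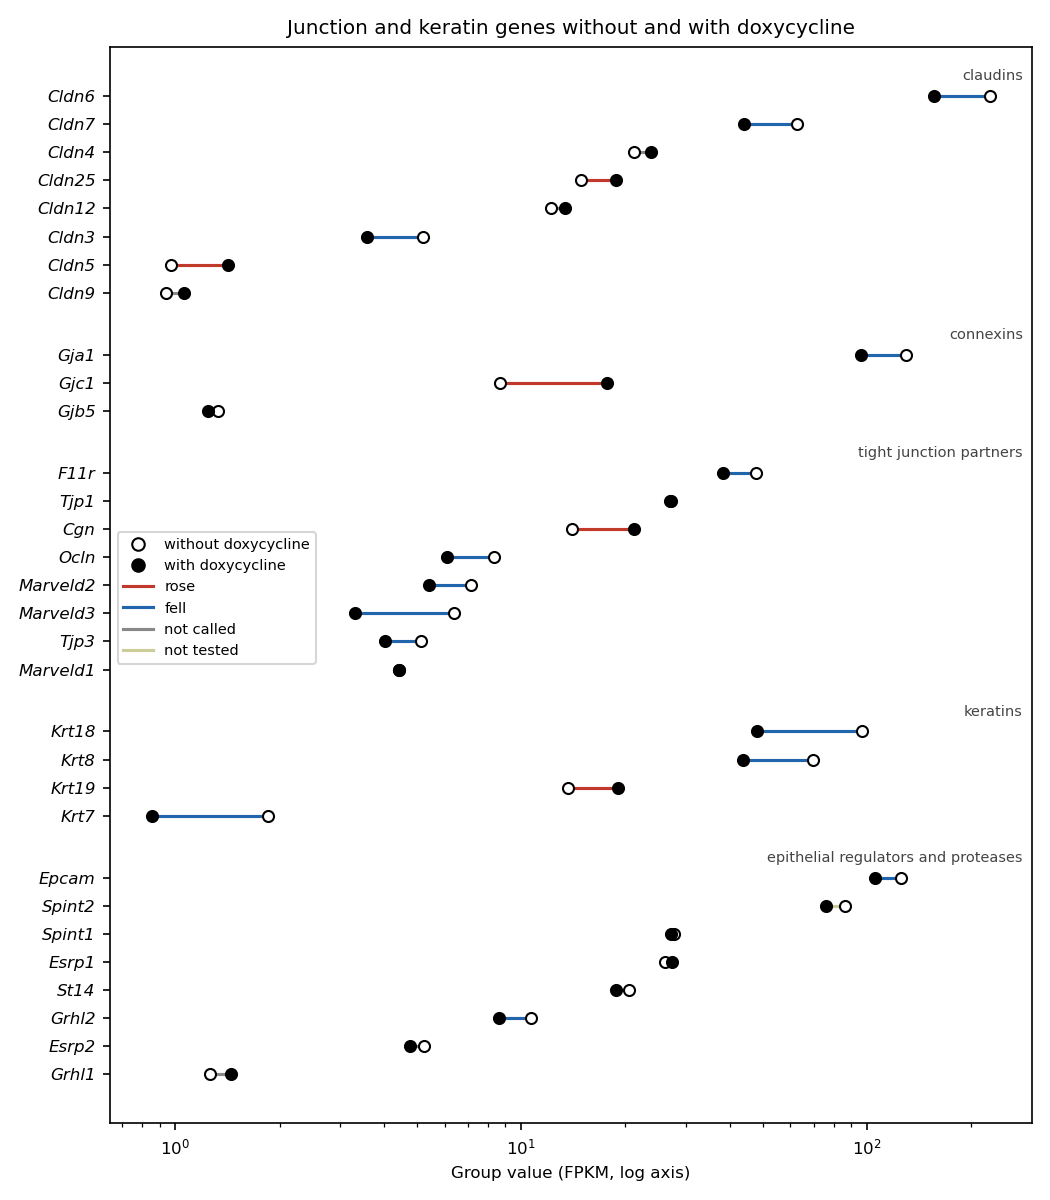
Group values in FPKM (log axis) of 31 members with at least 1 FPKM in either group, without doxycycline (open circles) and with it (filled circles), 1 value per group and no error; line colour gives the authors' call. Krt18 and Krt8 and the highest claudin, Cldn6, moved left, while Gjc1, Cgn and Krt19 moved right.

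All 4 keratins were called, with 3 lower and 1 higher, and a median difference of -0.65 as log2(FPKM + 1) against -0.02 over all tested rows. Of all tested rows of at least 1 FPKM, 28.3% were called, with 16.8% lower and 11.5% higher. Krt18, the type I keratin of simple epithelia, stood at 96.4 FPKM without and 48.0 FPKM with doxycycline, a 2.01-fold fall (log2 -1.01, SE 0.065; chromosome 15, positions 101858647 to 101862457 of mm9). Krt8, its type II partner, fell from 70.0 to 43.6 FPKM, 1.60-fold (log2 -0.68, SE 0.064; chromosome 15, 101827142 to 101834773). Both have a q of 0 in the authors' deposited table.

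Krt8 and Krt18 are neighbours, 23873 bases apart in mm9. Their transcripts were not lowered in equal measure, since the level of Krt8 went from 0.726 to 0.908 of that of Krt18. The difference between their log2 changes was 0.32 (95% interval 0.15 to 0.50, with the errors of both genes taken as independent). Krt7, a type II keratin of ducts and trophoblast, fell from 1.86 to 0.856 FPKM, with a wide interval (log2 -1.12, 95% interval -1.69 to -0.54). Krt19, a type I keratin without a tail domain, rose from 13.7 to 19.0 FPKM (log2 0.48, SE 0.10). Against Krt19, the level of Krt18 went from 7.06 times to 2.52 times. The summed level of the 4 keratins was 182 FPKM without and 112 FPKM with doxycycline.

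The stretches of 250 bases that end just before the annotated starts of Krt18 and Krt8 are shown here because these neighbours fell together. They are followed by those of Cldn6, the member with the highest level, and of the neighbours Cldn3 and Cldn4, of which the first fell and the second was not called. The sequences are RefSeq's for the mouse build GRCm38.p6, which is not the build of the table, and were matched by gene symbol. Each reads 5′ to 3′ on the gene's strand. Capitals mark a GC box (GGGCGG or its reverse complement CCGCCC), the letters that Sp family factors bind, or an E-box of the kind bound by Snail and Zeb factors (CACCTG or CAGGTG).
Krt18: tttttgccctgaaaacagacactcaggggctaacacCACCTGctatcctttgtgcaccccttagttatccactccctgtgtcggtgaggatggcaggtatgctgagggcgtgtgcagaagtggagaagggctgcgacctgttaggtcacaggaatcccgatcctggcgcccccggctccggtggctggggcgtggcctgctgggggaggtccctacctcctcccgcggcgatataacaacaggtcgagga
Krt8: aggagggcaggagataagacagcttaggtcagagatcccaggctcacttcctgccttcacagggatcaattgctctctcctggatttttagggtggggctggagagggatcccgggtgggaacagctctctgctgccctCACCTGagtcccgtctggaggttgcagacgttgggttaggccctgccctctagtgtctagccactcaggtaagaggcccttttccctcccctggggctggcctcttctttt
Cldn6: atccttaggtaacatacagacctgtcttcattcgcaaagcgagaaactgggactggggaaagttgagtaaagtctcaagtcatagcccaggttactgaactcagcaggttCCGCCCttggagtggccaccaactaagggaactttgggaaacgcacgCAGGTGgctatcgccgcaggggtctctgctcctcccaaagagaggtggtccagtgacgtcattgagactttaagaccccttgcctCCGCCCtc
Cldn3: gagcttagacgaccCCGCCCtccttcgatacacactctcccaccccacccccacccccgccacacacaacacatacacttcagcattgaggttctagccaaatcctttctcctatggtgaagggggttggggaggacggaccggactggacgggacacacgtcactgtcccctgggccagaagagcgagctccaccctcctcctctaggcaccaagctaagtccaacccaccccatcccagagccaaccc
Cldn4: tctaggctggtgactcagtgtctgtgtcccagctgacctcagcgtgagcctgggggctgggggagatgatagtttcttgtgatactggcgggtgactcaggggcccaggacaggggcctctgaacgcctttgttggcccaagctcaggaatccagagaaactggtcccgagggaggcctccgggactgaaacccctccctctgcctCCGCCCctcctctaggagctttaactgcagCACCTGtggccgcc
These lie at chr15:102027966-102028215 (plus strand, Krt18), chr15:102004343-102004592 (minus strand, Krt8), chr17:23679115-23679364 (plus strand, Cldn6), chr5:134985964-134986213 (plus strand, Cldn3) and chr5:134946935-134947184 (minus strand, Cldn4) of GRCm38.p6. Krt18 and Krt8 each held 1 E-box and no GC box. Cldn6 held 2 GC boxes and 1 E-box, Cldn4 1 of each, and Cldn3 1 GC box.

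Of the 71 members, 48 had such a stretch in the RefSeq table, with 64 stretches in all because some genes have several starts, and some of these overlap. Both strands were searched, and the letters were chosen with the values known. The E-box was in a stretch of 9 of the 13 members that fell and had one (69.2%), namely Cldn6, Cldn7, Epcam, F11r, Krt18, Krt7, Krt8, Ocln and Tjp3. It was in 2 of 4 that rose (Gjb1 and Gjb2), in 5 of 17 tested members not called (29.4%) and in 2 of 14 not tested. These member counts, and those for the other letters below, take in genes under 1 FPKM. Among such genes were Gjb1, Gjb2 and every uncalled member with an E-box but Cldn4. Over all genes with a stretch the share was 19.4%, and among all tested genes of at least 1 FPKM it was 22.3% of those that fell, 21.3% of those that rose and 17.2% of those not called. By stretches, it was in 58.8% of those of members that fell, 28.6% of those that rose, 22.7% of those tested and not called, and 17.2% of all 32851. Gjc1, Krt19 and the row Cldn25, which rose, had no stretch, nor had some that fell, such as Grhl2 and Marveld3. The GC box was in a stretch of 9 of the 13 members that fell (69.2%), of all 4 that rose and of 10 of 17 not called (58.8%). By stretches, these shares were 64.7%, 57.1% and 50%. By genes, the share among members that fell lay near those of all tested genes of at least 1 FPKM, 71.1% of those that fell, 67.7% of those that rose and 64.9% of those not called. A match of letters is a description and not a binding site, and no test was made of these shares. Among genes of the Snail and Zeb families, Snai1 went from 1.64 to 4.02 FPKM and Zeb2 from 0.382 to 0.986 FPKM, both called, while Snai2 (0.177 and 0.132 FPKM) was not. Zeb1 had no row under that name, and other genes of these families were not read. Whether Snail or Zeb factors had a part in the falls was not tested. The letters CTTTGAT, bound by TCF and LEF factors, were in no stretch of a tested member, against 3.21% of all stretches. For tested genes of at least 1 FPKM they were in 1.38% of stretches where the gene fell, 3.04% where it rose and 2.22% where it was not called. At such low shares, the few member stretches cannot show a lack. AACCNGTT, a form of the Grainyhead site, was in none of the members that fell and in Cgn and Cldn5 among those that rose. Among tested members not called it was in Spint3. It was in 2.00% of all genes with a stretch and in 1.79% of all stretches.

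**Figure D2:**
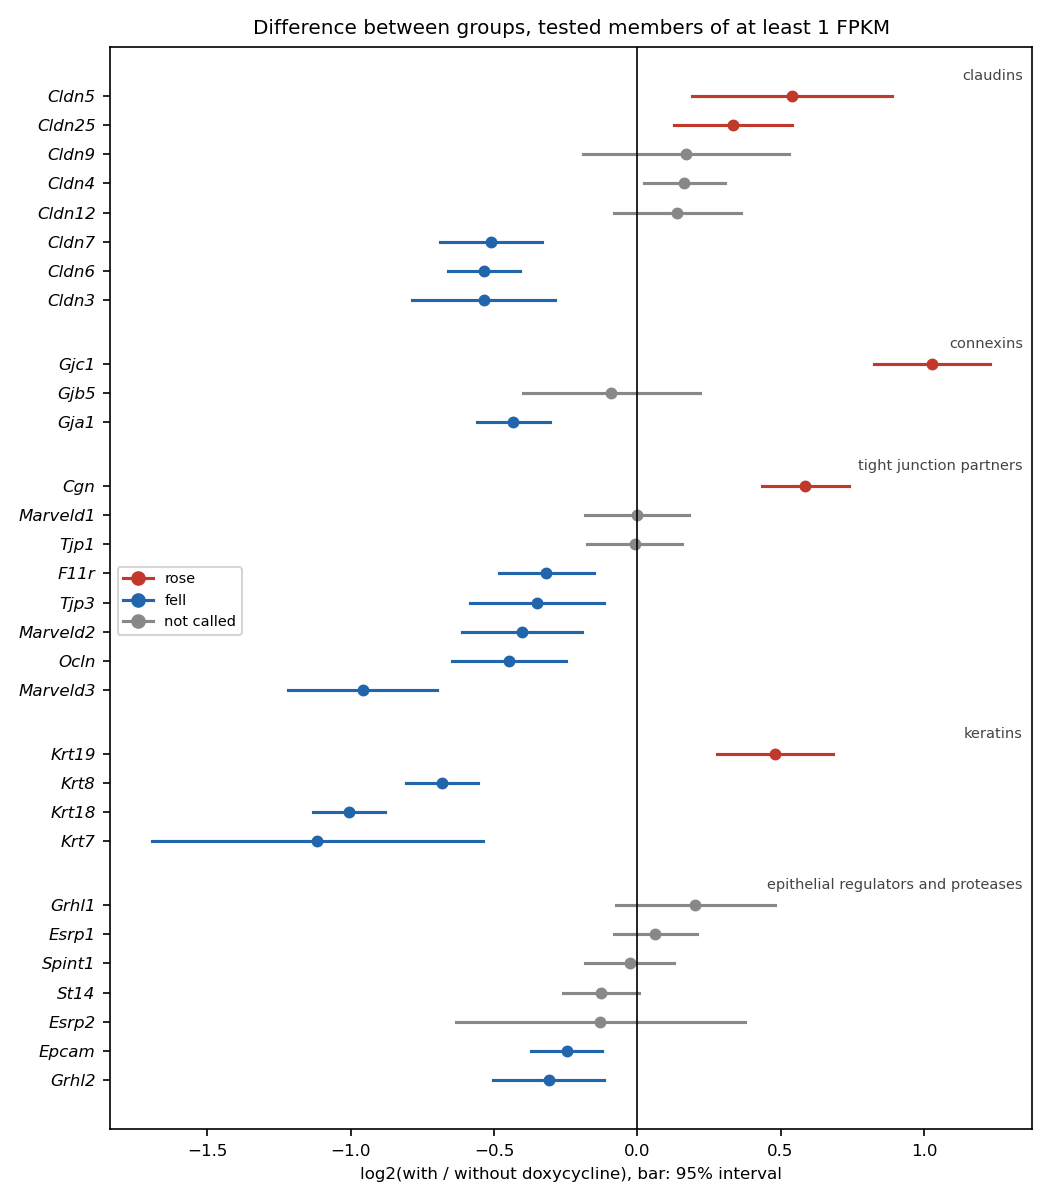
Difference between groups as log2 of the ratio of group values, with the 95% interval implied by the authors' test, for 30 tested members with at least 1 FPKM in the higher group, sorted within each family. The intervals of Cldn3, Cldn6 and Cldn7 lie below 0 and that of Cldn4 (0.02 to 0.31) above it, although Cldn4 was not called at q under 0.05.

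Among claudins, the 4-pass membrane proteins whose mix sets what a tight junction lets through, 4 of the 16 tested genes fell and 2 rose, while 10 were not called. The share called was 37.5% against 23.2% of all tested rows. Falls were 25% against 12.7% of rows, and rises 12.5% against 10.5%. The median difference of the tested claudins was 0.06 as log2(FPKM + 1), above 0 although the summed level was lower, because the highest genes fell. Cldn6, a claudin of embryonic epithelia and pluripotent cells, was the highest member of the whole set, at the 97.6th percentile of tested rows by level. It fell from 227 to 156 FPKM, 1.45-fold (log2 -0.53, SE 0.064; chromosome 17, 23816332 to 23819413 of mm9). Cldn7, a claudin that binds the Epcam protein, fell from 62.9 to 44.2 FPKM (log2 -0.51, SE 0.090; chromosome 11, 69778281 to 69781387). Cldn3, a barrier-forming claudin, fell from 5.19 to 3.58 FPKM (log2 -0.54, SE 0.13; chromosome 5, 135462084 to 135477220, a locus it shares with the untested Wbscr25). The 3 fell by nearly the same factor, between 1.42-fold and 1.45-fold, although their levels spanned more than an order of magnitude.

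Neighbouring claudin genes did not move alike. Cldn4, a close relative of Cldn3 that lies 39279 bases from it in mm9, stood at 21.2 and 23.8 FPKM and was not called (log2 0.16, 95% interval 0.02 to 0.31). The authors' deposited table gives it q = 0.0888, the nearest to the threshold among members not called. The difference between the log2 changes of Cldn3 and Cldn4 was -0.70 (95% interval -0.99 to -0.41, errors taken as independent). Cldn9, only 138 bases from Cldn6, stood at 0.939 and 1.06 FPKM and was not called. The log2 changes of Cldn6 and Cldn9 differed by -0.70 (95% interval -1.08 to -0.32). Reads can be split between such similar neighbours.

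Of the other claudins, Cldn12, an atypical member of the family, stood at 12.2 and 13.4 FPKM and was not called. Cldn5, the main claudin of endothelium, rose from 0.974 to 1.41 FPKM (log2 0.54, SE 0.18), the larger of the family's rises. The row named Cldn25 rose from 14.9 to 18.8 FPKM (log2 0.33, SE 0.10). RefSeq gives that name as a synonym of Cldnd1, a gene for a claudin domain protein on the same chromosome, so the row may not be a classical claudin. In the same way, the rows Cldn26, Cldn27 and Cldn21 match Tmem114, Tmem235 and the pseudogene Cldn25-ps. Without those 4 rows, 4 of 14 tested claudins fell, 1 rose and 9 were not called. Cldn1, a claudin of the skin barrier, fell from 0.440 to 0.185 FPKM, the largest change by ratio among the tested claudins (log2 -1.25, SE 0.21) but at a level under 1 FPKM in both groups.

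The rest of the claudins were scarcely present. Besides Cldn1, 7 tested members stayed under 1 FPKM and none of them was called. They were Cldn26, Cldn2, Cldn20, Cldn10, Cldn23, Cldn15 and Cldn11, between 0.0935 and 0.388 FPKM, and for Cldn20 reads may be shared with Tfb1m and Tiam2, which lie in the same locus. The 11 untested members reached at most 0.0585 FPKM, and Cldn17, Cldn24 and Cldn21 were listed at 0 in both groups. The summed claudin level was 347 FPKM without and 264 FPKM with doxycycline. Cldn6 made up 65.4% and 59.2% of it, Cldn7 18.1% and 16.7%, and Cldn4 6.11% and 8.98%.

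Most of the partners of claudins in the tight junction fell. Of 9 tested members, all above 1 FPKM, 6 fell and 1 rose, leaving 2 not called, with a median difference of -0.29 as log2(FPKM + 1). The share called was 77.8% against 28.3% of tested rows of at least 1 FPKM. Falls were 66.7% against 16.8% of those rows, and rises 11.1% against 11.5%. Among the membrane proteins that join claudins in the strands, Ocln, Marveld2 and Marveld3 fell and Marveld1 was not called. Ocln (occludin) fell from 8.33 to 6.10 FPKM (log2 -0.45, SE 0.10). Marveld2 (tricellulin), which seals the corners where several cells meet, fell from 7.14 to 5.40 FPKM (log2 -0.40, SE 0.11). Marveld3 fell from 6.41 to 3.30 FPKM, the largest change in this family (log2 -0.96, SE 0.13). Its log2 change was more negative than that of Ocln, with a difference of -0.51 (95% interval -0.84 to -0.18, errors taken as independent). Marveld1 stood at 4.44 FPKM in both groups (95% interval -0.18 to 0.18 on the log2 scale).

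F11r, which encodes the immunoglobulin-like adhesion protein JAM-A, fell from 47.8 to 38.4 FPKM (log2 -0.32, SE 0.085). The scaffold genes differed among themselves. Tjp3 fell from 5.15 to 4.04 FPKM (log2 -0.35, SE 0.12), with q = 0.0184 in the authors' deposited table, the called member nearest to the threshold. Tjp1 (zonula occludens 1) stood at 27.1 and 26.9 FPKM and was not called (95% interval -0.18 to 0.16).

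Cgn (cingulin), which links tight junctions to actin and myosin, was the family's only rise, from 14.1 to 21.1 FPKM (log2 0.59, SE 0.077; chromosome 3, 94464507 to 94590414 of mm9). Its relative Cgnl1 (paracingulin), from a list of related genes, fell from 21.2 to 12.9 FPKM (log2 -0.72, SE 0.082). So these paralogues were called in opposite directions. The locus of Cgn also holds Selenbp2 (0.0189 and 0.0203 FPKM) and Gm15264 (0.499 and 0.457 FPKM), neither of them called. Tjp3 shares its locus with Apba3 (12.7 and 12.3 FPKM, not called), and Marveld2 shares its with a U6 row listed at 0.

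The mix of connexins shifted between the groups. Of the 11 tested genes 3 rose and 1 fell, with 7 not called and a median difference of -0.02 as log2(FPKM + 1). The share called was 36.4% against 23.2% of all tested rows. Rises were 27.3% against 10.5% of rows, and falls 9.09% against 12.7%. Gja1, the most widely expressed connexin, fell from 129 to 95.9 FPKM (log2 -0.43, SE 0.065; chromosome 10, 56097106 to 56110225 of mm9). Without doxycycline only Cldn6 was above it in the whole set, and with doxycycline Epcam was above it too. Gjc1, a connexin of the early embryonic heart and of smooth muscle, rose from 8.70 to 17.7 FPKM, 2.04-fold (log2 1.03, SE 0.10; chromosome 11, 102660893 to 102681014). It was the largest rise by ratio among the called members. Gja1 was 14.9 times as high as Gjc1 without doxycycline and 5.41 times as high with it. Their log2 changes differed by -1.46 (Gja1 less Gjc1, 95% interval -1.70 to -1.22, errors taken as independent).

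The other connexins that rose were low. Gjb1, a connexin of liver and of myelinating glia, rose from 0.350 to 0.678 FPKM (log2 0.95, SE 0.28). Gjb2, a connexin of the inner ear and skin, rose from 0.323 to 0.597 FPKM (log2 0.89, SE 0.20). Gjb5 (1.33 and 1.25 FPKM), a connexin of skin and trophoblast, was not called. Gja4, Gjd2, Gjd3 and Gja3 stayed under 1 FPKM and were not called. The 9 untested connexins reached at most 0.0634 FPKM. Summed over the 20 connexins, the level was 145 FPKM without and 121 FPKM with doxycycline. Gja1 made up 89.4% of it and then 79.4%, and Gjc1 6.01% and then 14.7%.

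**Figure D3:**
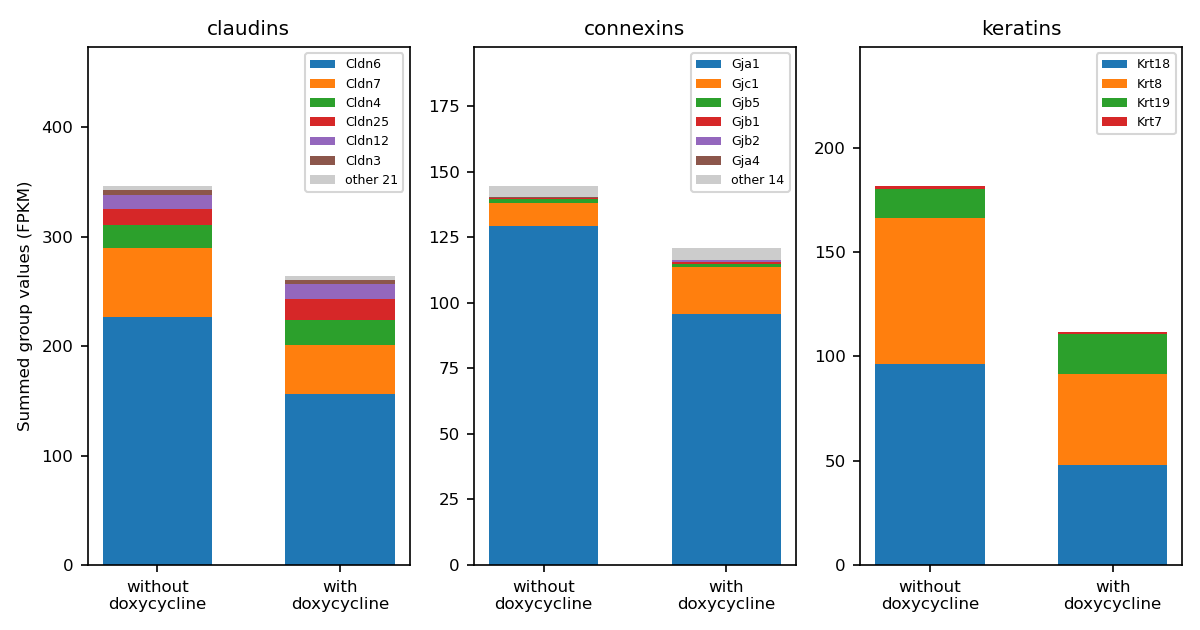
Summed group values in FPKM of claudins, connexins and keratins without and with doxycycline, stacked by gene (bars start at 0, 1 value per group, no error). Cldn6 and Cldn7 lead the claudin sum and Gja1 the connexin sum in both groups, while the parts of Gjc1 and Krt19 were larger with doxycycline.

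Few regulators of the epithelial state and proteases were called. Of the 9 tested genes 2 fell, none rose and 7 were not called. That is a share of 22.2%, near the 23.2% of all tested rows. Both calls were falls, so falls were 22.2% against 12.7% of rows, and rises 0% against 10.5%. The median difference was -0.11 as log2(FPKM + 1), against -0.02 over all tested rows. Epcam, an adhesion protein of epithelia and ES cells, fell from 125 to 106 FPKM (log2 -0.25, SE 0.063; chromosome 17, 88035319 to 88050446). Grhl2, a Grainyhead factor that activates epithelial junction genes, fell from 10.6 to 8.59 FPKM (log2 -0.31, SE 0.099). Its locus also holds Gm16136 (1.90 FPKM without doxycycline), Gm16137 and Gm16138, none of them called. Its relatives Grhl1 (1.26 and 1.45 FPKM) and Grhl3 (0.729 and 0.872 FPKM) were not called.

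The splicing factors and proteases of epithelia were close to level between the groups. Esrp1, which sets epithelial splice forms, stood at 26.1 and 27.3 FPKM (log2 0.06, 95% interval -0.08 to 0.21), and Esrp2 at 5.23 and 4.78 FPKM (95% interval -0.63 to 0.38). St14, the membrane protease matriptase, stood at 20.5 and 18.8 FPKM (log2 -0.13, 95% interval -0.26 to 0.01). Its inhibitor gene Spint1 stood at 27.6 and 27.1 FPKM (95% interval -0.18 to 0.13). Spint2, another inhibitor of that kind, stood at 86.3 and 75.9 FPKM and had no test. Spint3 (0.156 and 0.0478 FPKM) was not called, and Spint4 was listed at 0 and 0.00797 FPKM and was not tested. Of the 7 uncalled members with at least 5 FPKM, in all families, 6 had intervals that held no change of 1.5-fold or more. Esrp2, whose interval reached 1.55-fold, was the exception.

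Other genes of the epithelial junctions were read from lists drawn up with earlier results of these data known. Adherens junctions and desmosomes are the cadherin-based contacts below the tight junction. Of 22 tested genes of these contacts, 7 fell, 3 rose and 12 were not called (45.5% called, median difference -0.14 as log2(FPKM + 1), against 23.2% and -0.02 over all tested rows). At 1 FPKM or more the share called was 38.9% against 28.3% of rows, since 2 of the rises, Pkp1 (0.0427 and 0.142 FPKM) and Dsc3 (0.0271 and 0.0880 FPKM), and 1 fall lay below that level. Cdh1 (E-cadherin) fell from 134 to 99.7 FPKM (log2 -0.43, SE 0.071), and the nectin gene Pvrl1 from 5.99 to 1.88 FPKM (log2 -1.67, SE 0.085). Pkp2, a plakophilin of desmosomes, fell from 24.4 to 9.48 FPKM (log2 -1.37, SE 0.076), Dsc2 (desmocollin) from 2.65 to 1.93 FPKM and Mllt4 (afadin), whose locus holds 10 rows, from 38.3 to 31.5 FPKM. Perp, a desmosomal membrane protein, rose from 5.94 to 8.87 FPKM. The catenin genes Ctnnb1 (284 and 257 FPKM), Ctnna1 (88.2 and 95.5 FPKM) and Ctnnd1 (45.1 and 40.8 FPKM) were not called.

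Of 27 tested rows for polarity proteins and junction scaffolds, 6 fell, 3 rose and 18 were not called (33.3% called, median difference -0.05, against 23.2% and -0.02 over all tested rows). At 1 FPKM or more 33.3% were called against 28.3% of rows, a share near the background. Crb3, the Crumbs protein of epithelial apical membranes, fell from 43.9 to 27.8 FPKM (log2 -0.66, SE 0.10), and Llgl2, a polarity protein of the side membrane, from 18.9 to 13.5 FPKM. Pard3 fell from 17.5 to 14.0 FPKM, and Cgnl1 as given above. Esam, an adhesion protein of endothelial tight junctions, rose from 0.728 to 6.16 FPKM (8.47-fold, log2 3.08, SE 0.24), and Crb2, a Crumbs relative needed in gastrulation, from 0.792 to 2.13 FPKM. Among 19 tested epithelial regulators, 7 fell, 3 rose and 9 were not called (52.6% called, median difference -0.08, against 23.2% and -0.02 over all tested rows), with Cdh1 counted again here. Falls made up 36.8% and rises 15.8%, against 12.7% and 10.5% of rows. Rab25, a small GTPase of epithelial recycling endosomes, fell from 43.3 to 17.0 FPKM (2.55-fold, log2 -1.35, SE 0.081), and Prss8 (prostasin), which acts with matriptase, from 20.7 to 12.8 FPKM. Cdcp1 fell from 2.33 to 1.53 FPKM, and Ovol2, a zinc finger repressor that maintains epithelial cells, from 5.43 to 3.80 FPKM. Tfap2a, an AP-2 factor of surface ectoderm, rose from 0.180 to 2.50 FPKM (13.9-fold).

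**Figure D4:**
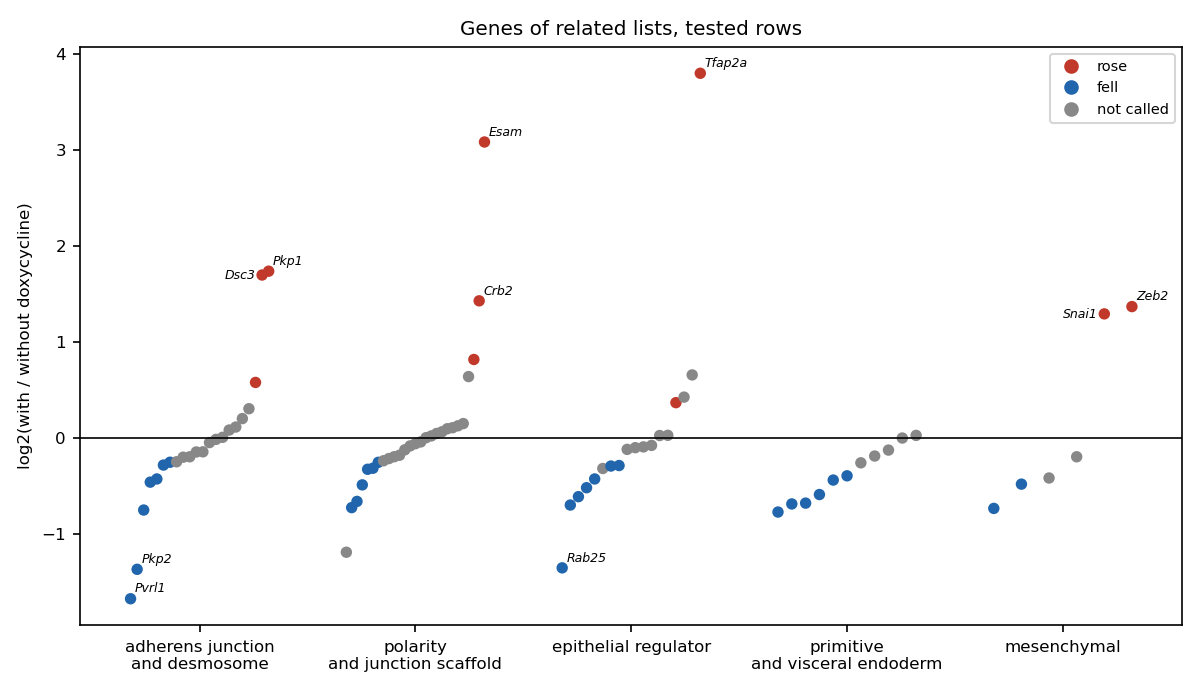
Difference between groups (log2 of the ratio of group values) for tested genes of 5 lists, sorted within a list, coloured by the authors' call, with genes called at a size of 1.2 or more on the log2 scale named. Pvrl1, Pkp2 and Rab25 lie lowest and Tfap2a and Esam highest, while no tested endoderm gene was called higher.

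Markers of other cells in embryoid bodies moved beside the junction genes. Primitive and visceral endoderm is an epithelium that carries the same keratins. In its list of 13 genes, 12 had a row and 11 were tested, of which 6 fell, none rose and 5 were not called (median difference -0.38 as log2(FPKM + 1)). All 11 were above 1 FPKM, and 54.5% of them fell against 16.8% of tested rows at that level. The 12 genes with a row summed to 267 FPKM without and 203 FPKM with doxycycline. This includes Dab2 (85.2 and 56.6 FPKM), which had no test. None of the 12 was listed at 0. Amn fell from 36.5 to 27.8 FPKM and Gata6 from 4.43 to 2.76 FPKM, while Ttr (36.8 and 37.5 FPKM), Gata4 and Hnf4a were not called. Of 7 tested trophectoderm genes, Krt7 and Krt8 fell, Cdx2 and Eomes rose, and Elf5 (0.0693 and 0.0678 FPKM) and Hand1 (0.106 and 0.182 FPKM) were near 0. That is 57.1% called against 23.2% of all tested rows. The 7 genes summed to 83.6 FPKM without and 77.6 FPKM with doxycycline. Most of this was Krt8 (70.0 and 43.6 FPKM), itself a member of the set. Eomes went from 10.4 to 27.8 FPKM and Cdx2 from 0.262 to 3.85 FPKM. The part of endoderm and trophectoderm cells in the results was not tested.

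The fibroblast list, for the feeder cells, summed to 16.9 and 16.2 FPKM over 9 genes, of which 8 were tested. Of the 8, 3 fell (Thy1, Dcn and Pdgfrb), 1 rose (Col1a1) and 4 were not called (median difference -0.06). That is 50% called against 23.2% of all tested rows. Thy1 went from 9.34 to 6.42 FPKM and Col1a1 from 1.11 to 4.43 FPKM. None of the 9 was listed at 0, and Lum (0.0267 and 0.0481 FPKM) was near it. Among 6 tested mesenchymal genes, 2 rose (Snai1 and Zeb2), 2 fell (Vim and Twist1) and 2 were not called (median difference -0.11). So 66.7% of these were called, against 23.2% of all tested rows. Vim (vimentin) fell from 34.1 to 24.5 FPKM, and Cdh2 (N-cadherin, 6.15 and 5.37 FPKM) was not called. This list summed to 60.4 and 55.6 FPKM over 7 genes, with Fn1 (16.6 and 19.8 FPKM) untested and Zeb1, also listed, without a row. The part of feeder and mesenchymal cells in the results was not tested.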

How the data were processed

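Poly(A)-selected RNA of 6 libraries (3 without and 3 with doxycycline) was sequenced, per the labels' protocols, which mention no strand marking. The submitters' processing notes name mm9, Cuffdiff, Cufflinks 2.0.2, TopHat2 2.0.8, Picard and Bowtie. The annotation is not given in the sources used here. The authors deposited 1 table with an FPKM value per group, which pools the libraries, and the p-value and q-value of their own Cuffdiff test. Their calls are the test used, since group values allow no refit. The table was checked: q-values recomputed by Benjamini-Hochberg over the 18537 rows with status OK differed by at most 1.79e-06, and p-values from a normal distribution of the deposited test statistic by at most 2.84e-06. That statistic is the log ratio over its standard error, with the sign turned, so each SE is the log2 ratio divided by it. Calls and intervals were tested on simulated data drawn with the same SE values, which checks the arithmetic and not the authors' error model.

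Medians used log2(FPKM + 1) with a pseudocount of 1 FPKM. Of the 71 members, 16 share a locus with another row, 5 of them called, and reads there may not be separable. The 71 symbols were matched to RefSeq's table for GRCm38.p6, 67 by symbol and 4 by a synonym on the same chromosome. A few genes counted in the totals are not reported here by name. Otherwise, named were every called member, every uncalled member of at least 5 FPKM, up to 6 called genes of each related list with at least 1 FPKM, and markers of cell types, catenin genes and low members chosen with their values in view. Members, lists, motifs and this rule were chosen with earlier results of these data known. The alternatives were other thresholds, minimum folds and levels, rows that share a locus, scaling and pseudocounts. Python 3.11.15, numpy 2.4.6, pandas 2.3.3, scipy 1.17.1 and matplotlib 3.10.9 were used.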

Additional observations from a re-analysis of the deposited data

How the results depend on the processing

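With a minimum of 1.5-fold, 2084 rows of the table were called (1117 higher, 967 lower) and 9 members (4 higher, 5 lower, against 7 and 16 with no minimum), with 1 claudin, 2 tight junction partners and 0 epithelial regulators and proteases. That left 5 genes in each of the 3 related lists, with 2 higher and 3 lower for adherens junctions and desmosomes and for epithelial regulators. The polarity and scaffold list turned from 3 higher and 6 lower to 3 higher and 2 lower. With a minimum of 2-fold the counts were 1068 rows (656 higher, 412 lower) and 4 members (1 higher, 3 lower), with 1 claudin, 1 connexin, 0 tight junction partners, 2 keratins and 0 regulators and proteases. It left 4 genes of adherens junctions and desmosomes (2 higher, 2 lower), 2 of polarity and scaffolds (both higher) and 3 epithelial regulators (2 higher, 1 lower). Every call among tight junction partners was thus of under 2-fold. Over members of at least 1 FPKM, 2 connexins were called, with the deposited q or with p-values adjusted again. With q under 0.01, 1 member of the regulators and proteases was called. Without rows that share a locus, 4 tight junction partners (all lower), 1 regulator or protease, 4 polarity and scaffold genes and 5 epithelial regulators were called. The other counts stayed within 1.5 times. The median difference of the members, -0.03, was -0.10 with a pseudocount of 0.1 FPKM, -0.13 with none and -0.11 at 1 FPKM or more. Scaling to the median gene of at least 1 FPKM (log2 -0.04) moved none of the 49 tested members by more than its SE, and no called member changed sign under it or under either pseudocount. With a pseudocount of 1 FPKM, 10 of 49 moved by more than their SE, and 1 with 0.1 FPKM. No paired analysis was possible because the table holds 1 value per group, and for the same reason no library could be left out in turn. The unknown depth limits what can be said of members under 1 FPKM.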
